A study of Mus musculus with 24 samples.

Results

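The genes described here are the nuclear-encoded subunits of the 5 complexes of the mitochondrial respiratory chain, read from liver RNA of mice fed phloridzin. They were taken by gene symbol from the array annotation: Nduf genes of the a, b, c, s and v series for complex I, Sdha to Sdhd for complex II, Uqcr genes for complex III, Cox4 to Cox8 genes for complex IV and Atp5 genes for complex V. The rule found 81 genes, carried by 164 of the 34945 probe sets that the annotation assigns to a single gene: 35 genes of complex I, 4 of complex II, 8 of complex III, 17 of complex IV and 17 of complex V. The complex of each gene was set by its symbol alone and was not checked otherwise. Ndufa4 and Ndufa4l2 thus count under complex I and Cox7a2l under complex IV. Each gene was read from its probe set with the highest mean signal. The filter on low signal left 76 of the 81 genes among the 13068 genes tested, namely 33, 4, 8, 14 and 17 of complexes I to V. The other 5, Ndufa4l2, Ndufb4, Cox4i2, Cox7b2 and Cox8b, had mean log2 signals of 3.00 to 3.25, where the floor of the scale is 3.00. Single RNA samples reached at most 4.03. For Ndufb4 this holds for its single-gene probe set only. Probe sets that list it together with Ndufb4b and Ndufb4c were bright, with means of 10.96 and 10.34, and were not used.

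The series holds 24 one-colour Affymetrix arrays of liver from male BALB/c mice, an inbred strain, which were 6 weeks old on arrival and had 1 week on a standard diet before the experiment. The purified AIN-93G diet was then given for 14 days with no phloridzin (control) or with 0.1%, 0.5% or 1.0% phloridzin by the labels, to 6 mice per diet kept 3 to a cage. Phloridzin is a glucoside from apple trees that blocks sodium-glucose cotransporters. No group carried a genetic change, and the cage of each mouse is not given in the labels.

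Arrays of the same diet were in part near-identical, and the labelled replicates could not all be counted as separate mice. Of 276 pairs of arrays, 13 differed by an SD of only 0.0436 to 0.0577 on the log2 scale over well measured genes. A further 8 pairs, at 0.108 to 0.137, shared the pattern of the most variable genes. The next closest pair was at 0.164. Arrays joined in this way were averaged as 1 RNA sample, which left 4 RNA samples of control, 3 of 0.1%, 2 of 0.5% and 2 of 1.0%. Another set joined 3 arrays labelled 0.1% (replicates 1, 3 and 6) with 1 labelled 1.0% (replicate 1), and it entered no comparison. Signals are log2 values after quantile scaling, with a floor at 3.00, and are listed in a fixed order: control replicates 1 and 3, 2 and 4, 5, then 6; 0.1% replicates 2, 4 and 5; 0.5% replicates 1, 2, 3 and 6, then 4 and 5; 1.0% replicates 2, 3, 5 and 6, then 4. Whether the remaining RNA samples of a diet came from separate mice rests on the labels alone. In whole liver, fewer cells of a type and less RNA per cell cannot be told apart.

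The respiratory chain passes electrons from NADH through complex I, and from succinate through complex II, to ubiquinone, then through complex III and cytochrome c to complex IV, which reduces oxygen. Complexes I, III and IV pump protons across the inner mitochondrial membrane, and complex V, the ATP synthase, uses their return to make ATP. The liver depends on this for gluconeogenesis and urea synthesis. Most subunits are nuclear genes, and a few of complex IV exist as isoforms known from liver, heart and skeletal muscle, or testis.

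The labelled tissue was checked against marker genes. The 9 hepatocyte markers with a probe set, albumin and apolipoprotein genes among them, summed to a linear signal of 67221 to 72005 over the 11 RNA samples. Ass1, 1 of the 9, was dim, at log2 3.72 to 5.52. For skeletal and cardiac muscle, 11 of 11 markers had a probe set and summed to 99.5 to 116, with Myh1, Tnnc2 and Tnni3 at the floor everywhere. The adipocyte list, 5 of 7 with a probe set, summed to no more than 53.3, and Ucp1 and Lep were at the floor. Markers of other liver cells differed between some diets. Kupffer cell markers, 11 of 11 with a probe set, summed to 3088 to 3619 in the controls, 2564 to 3265 at 0.1%, 3270 to 3420 at 0.5% and 2924 to 2972 at 1.0%, so both 1.0% samples were below every control. Sinusoidal endothelial markers, 9 of 9, summed to 1904 to 2018, 1420 to 1927, 1865 to 1946 and 1781 to 1864 in the same order, and again both 1.0% samples were below the controls. At 0.1% 8 of the 10 tested Kupffer cell markers and 8 of the 9 endothelial markers were lower than control. Erythroid markers, 3 of 5, summed to 449 to 576 at 0.5% against 716 to 936 in the controls. That sum was mostly Alas2, at log2 8.74 to 9.86 over the RNA samples, while Hba-a1 and Slc4a1 had medians of 3.29 and 3.41. Stellate cell markers, 7 of 7, stayed within 2195 to 2641. Cholangiocyte markers, 5 of 6 and with Cftr at the floor, summed to 76.7 to 77.6 at 0.5% against 47.0 to 60.5 in the controls. Neutrophil markers, 7 of 7, summed to 187 to 397 at 0.5% against 141 to 211 in the controls. Of the 6 tested, 5 were higher and 1 was lower at 0.5%. Pancreatic acinar markers, 3 of 5, summed to 749 to 1000 over the RNA samples, mostly from Cela1 at log2 9.46 to 9.92. The part of all these cells in the subunits' values was not tested.

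Across the 5 complexes, the differences between diets were small, and no single subunit passed the test. At 0.1% phloridzin 57 of the 76 tested subunits were higher than in the control, where 50.8% of all genes were. At 0.5% and 1.0% 56 and 55 of the 76 were lower, against 49.1% and 54.2% of all genes. The median log2 change was 0.06 at 0.1%, -0.07 at 0.5% and -0.07 at 1.0%, against 0.0045, 0.0060 and -0.02 over all genes tested. These medians have no test of their own. In limma's moderated test, fitted over the 4 diets with Benjamini-Hochberg adjustment over all 13068 genes, 0 of 76 members were called at an adjusted p under 0.05 at any dose. The same rule called 0.023% of all genes at 0.1%, 0.00765% at 0.5% and 0.0153% at 1.0%. The lowest adjusted p of any member against control was 0.504, 0.682 and 0.621 at the 3 doses in turn.

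At an unadjusted p under 0.05, 7 members were higher and 1 was lower at 0.1%, where 4.55% of all genes were higher and 3.9% lower. At 0.5% 1 was higher and 5 were lower, against 2.53% and 2.7% of all genes. At 1.0% 3 were higher and 5 lower, against 2.46% and 4.06%. Leaving out the RNA of 0.5% replicates 4 and 5 brought the 5 lower at 0.5% to 0, and leaving out that of 1.0% replicates 2, 3, 5 and 6 brought the 5 lower at 1.0% to 1. The totals, 10.5%, 7.89% and 10.5% of the 76, stood beside 8.45%, 5.23% and 6.53% of all genes. By overlap of the samples, 23 members lay below all control samples at 0.5%, or 30.3%, where 8.69% of all genes did so. At 1.0% 17 members lay below all control samples, or 22.4%, against 12.3% of all genes. At 0.1% 10 members lay above all control samples, or 13.2%, against 4.24% of all genes. Over the alternatives that kept every sample, these 3 counts ran from 6 to 46, from 2 to 59 and from 0 to 10, in that order of mention, and leaving out 1 RNA sample, which makes a gap easier to meet, gave 23 to 35, 17 to 33 and 10 to 20.

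The sign of the shift at 0.1%, and the size of the shift at every dose, rested on how the arrays were scaled. The shifts were therefore read against other bright genes. The arrays' own medians ran from 9.47 to 18.0 in linear signal. With arrays centred on their medians, the median change of the members was -0.01 at 0.1%, -0.24 at 0.5% and -0.34 at 1.0%, and without any scaling it was -0.10, -0.34 and -0.50. The members at an unadjusted p under 0.05 moved as well. After median centring 17 were lower and 1 was higher at 0.5%, and 40 were lower and 1 was higher at 1.0%. In either direction these were 23.7% and 53.9% of the members, against 8.28% and 19.1% of all genes. Without scaling 20 were lower at 0.5% and 52 at 1.0%. The shares in either direction were then 27.6% and 68.4% of the members, against 5.78% and 18.9% of all genes. Most subunits are bright, with 70 of the 76 at a mean log2 signal over 9, and genes this bright shifted alike: their median at 1.0% was -0.03 with quantile scaling, -0.32 after median centring and -0.48 without scaling. The median of the members minus that of all genes with a mean log2 over 9 was 0.07 at 0.1%, -0.05 at 0.5% and -0.04 at 1.0%. With the 3 other scalings, which shift each array by 1 factor and so give the same difference by construction, it was 0.08, -0.05 and -0.02. At 0.5% and 1.0% the members' median was negative under every scaling. The sign at 1.0% rested instead on the RNA that carries labels of 2 diets. With that RNA kept under each of its labels, the members' median there was 0.024 and 43 of 76 were higher. In that setting 2 members lay below all control samples at 1.0%, and the changes of Atp5d and Ndufs8, the members with the lowest slope p, were -0.19 and -0.11 there.

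**Figure D1:**
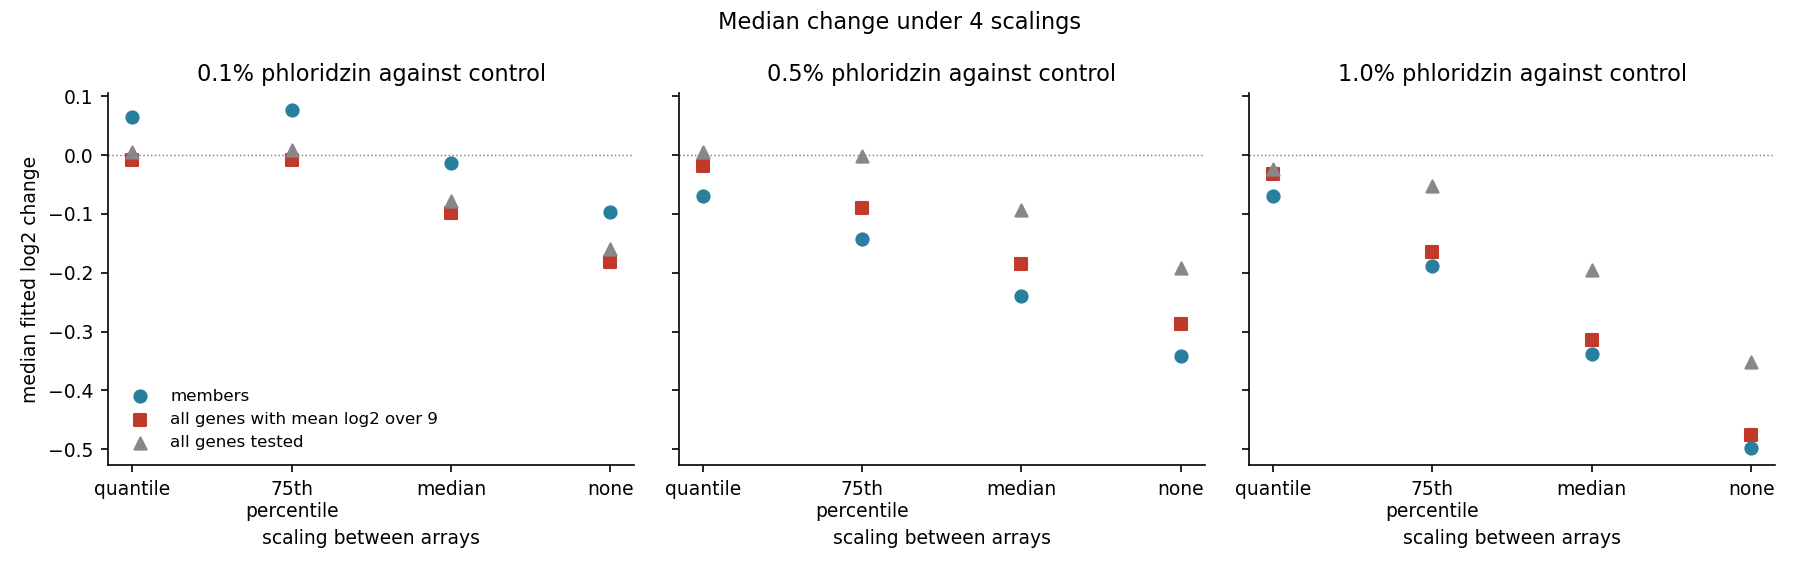
Median fitted log2 change of the 76 members (circles), of all genes with a mean log2 signal over 9 (squares) and of all 13068 genes tested (triangles), for each phloridzin diet against control, under 4 ways of scaling the arrays. The members' median moves from 0.06 to -0.10 at 0.1% and from -0.07 to -0.50 at 1.0% as scaling is removed, and the bright genes move with it.

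RNA quality values differed between some of the diets. The 3' to 5' difference of the Gapdh control probe sets, in log2, was -0.34 ± 0.04 (SD, n = 4) in the control samples, -0.19 ± 0.13 (n = 3) at 0.1%, -0.17 ± 0.01 (n = 2) at 0.5% and -0.35 ± 0.01 (n = 2) at 1.0%. For actin it was 1.41 ± 0.08, 1.79 ± 0.45, 1.62 ± 0.13 and 1.35 ± 0.17, with replicate 4 at 0.1% highest at 2.30. In exact two-sided permutation tests over RNA samples against control, the Gapdh value gave p = 0.0286 at 0.1%, the smallest that 35 splits allow, and p = 0.0667 at 0.5%, the smallest of 15. At 1.0% the same exact permutation test gave p = 0.733. For actin the same permutation tests gave p = 0.0571 at 0.1%, 0.0667 at 0.5%, again the smallest of 15, and 0.667 at 1.0%. The part of RNA quality in the subunits' values was not tested. Without replicate 4 of 0.1%, 56 of the 76 members were higher than control at that dose, and without replicate 5 43 were.

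**Figure D2:**
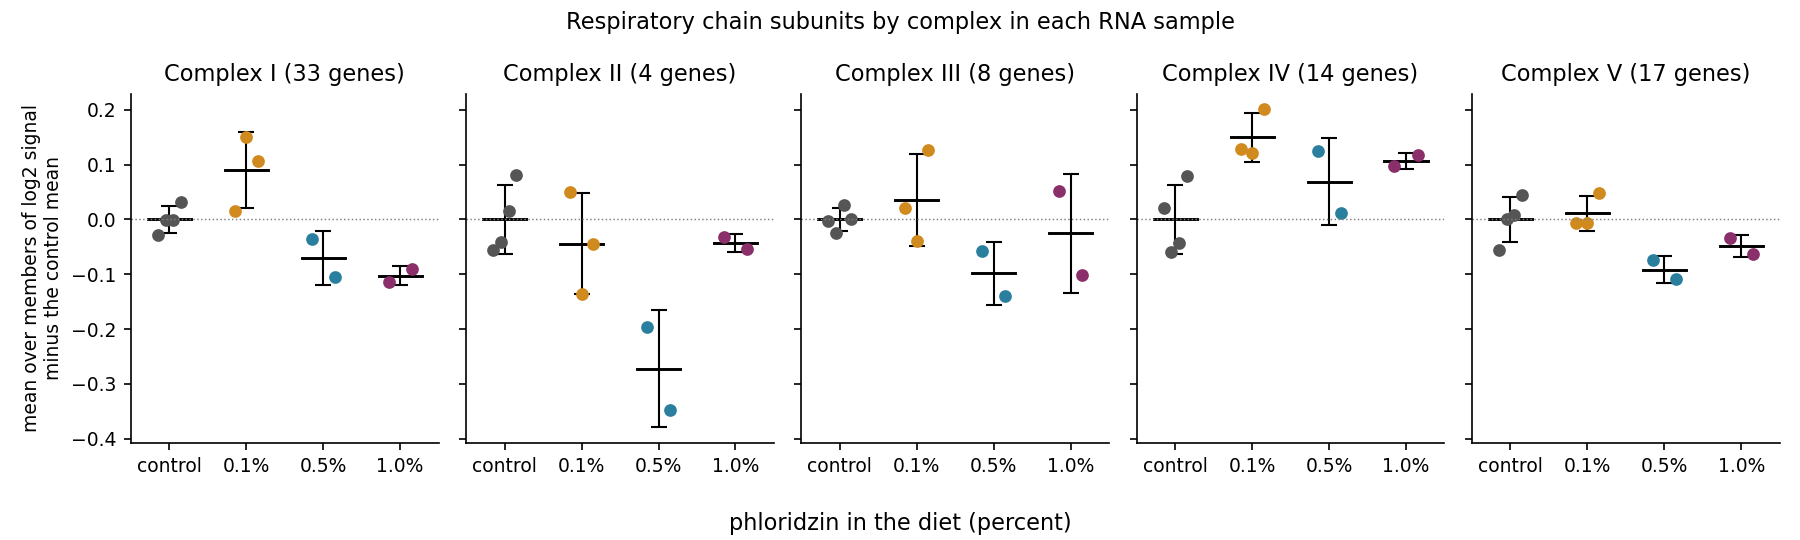
Each point is 1 RNA sample, plotted as the mean over the tested members of a complex of log2 signal minus the control mean, by percent of phloridzin in the diet; horizontal lines are group means and bars are SDs (n = 4, 3, 2 and 2). Complex I lies at -0.03 to 0.03 in control, 0.02 to 0.15 at 0.1%, -0.10 to -0.04 at 0.5% and -0.11 to -0.09 at 1.0%. Complex IV lies at 0.10 to 0.12 at 1.0%, above the control samples at -0.06 to 0.08. Dim probe sets enter that mean, among them Cox7c at 1.11 and Cox6a2 at 0.43. Of the 14 members of complex IV, 9 were lower at 1.0%, with a median change of -0.03.

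**Figure D3:**
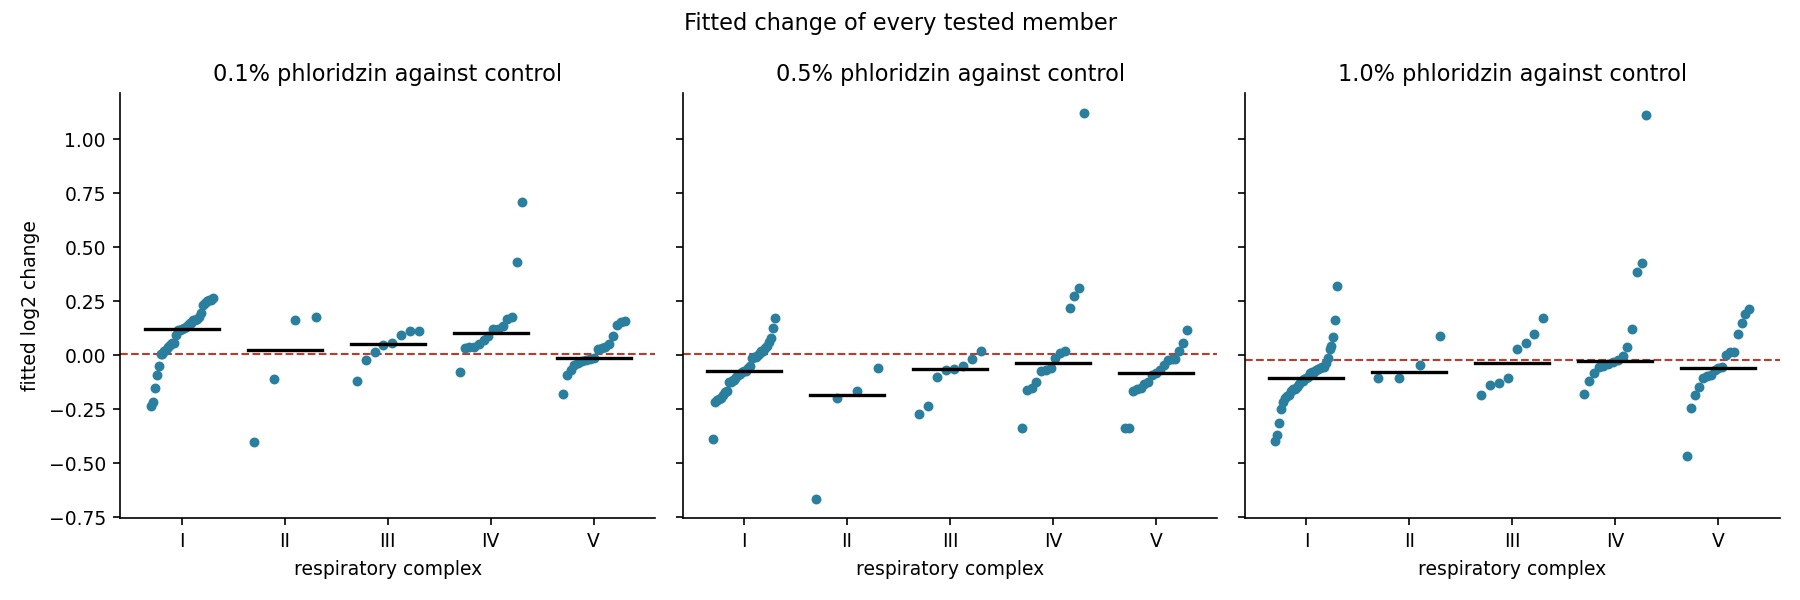
Fitted log2 change of each tested member against control, by complex and dose, with a black line at each complex's median and a dashed line at the median of all genes tested. The medians of complex I lie at 0.12, -0.07 and -0.11 in the 3 panels, and the highest points of complex IV, 0.71, 1.12 and 1.11, are dim probe sets.

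Complex I is the entry point for electrons from NADH, and most of its 33 tested subunits were higher at the lowest dose and lower at the highest. Averaged over those subunits, signals lay -0.03 to 0.03 from the control mean in the control samples. They lay at 0.02 to 0.15 in the 0.1% samples, at -0.10 to -0.04 in the 0.5% samples and at -0.11 to -0.09 in the 1.0% samples. The 0.5% and 1.0% samples thus lay below every control sample, while the 0.1% range overlapped the control range. At 0.1% 28 of 33 subunits were higher, at 0.5% 23 were lower and at 1.0% 28 were lower. Between 1.0% and 0.1%, 26 of 33 were lower at 1.0%, where 53.4% of all genes were, 13 of them at an unadjusted p under 0.05, where 7.38% of all genes were lower at that level. In the same limma fit none was called, and the lowest adjusted p in complex I was 0.148. With the RNA that carries labels of 2 diets kept under each label, and so on both sides, the 13 became 2. With eBayes without a trend they became 7. Leaving out the RNA of 1.0% replicates 2, 3, 5 and 6 brought the 13 down to 6, and leaving out 0.1% replicate 5 brought it to 10.

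Ndufs8, an iron-sulfur subunit of the arm that carries electrons to ubiquinone, had the largest difference in complex I at 1.0%. Its log2 signals were 11.49, 11.60, 11.23 and 11.56 in the control samples, 11.71, 11.64 and 11.76 at 0.1%, 11.25 and 11.46 at 0.5% and 10.96 and 11.18 at 1.0%. Both 1.0% samples were below every other sample, and the 0.1% samples were above every control sample. The fitted change at 1.0% was -0.40 ± 0.12 (SE), a signal 1.32 times lower than control, with a limma adjusted p of 0.737. Against 0.1% it was -0.63 ± 0.12, with a limma adjusted p of 0.148. The gene has 6 probe sets, and the other 5 gave 1.0% differences of -0.12, -0.10, -0.07, 0.02 and 0.26, so both the size and the sign depended on the probe set.

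Ndufa13, a membrane-arm subunit, followed the same order of diets. It read 11.68, 11.70, 11.80 and 11.78 in the control samples, 11.73, 12.11 and 11.91 at 0.1%, 11.62 and 11.53 at 0.5% and 11.21 and 11.53 at 1.0%. The 0.5% and 1.0% samples all lay below the control samples, and the 0.1% samples overlapped them. The change at 1.0% was -0.37 ± 0.12 with an adjusted p of 0.744, and the slope on percent of phloridzin was -0.45 ± 0.12 per percent, adjusted p = 0.459. Without the RNA of 1.0% replicates 2, 3, 5 and 6 the 1.0% change was -0.21. Only 1 of its probe sets carries this gene alone.

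Ndufv1, the flavoprotein that takes electrons from NADH, was at 10.63, 10.66, 10.64 and 10.83 in the control samples, 10.81, 10.75 and 10.96 at 0.1%, 10.47 and 10.67 at 0.5% and 10.38 and 10.50 at 1.0%. The 1.0% samples were below all controls and the other diets overlapped them. Its change at 1.0% was -0.25 ± 0.11 with an adjusted p of 0.761, and its other probe sets gave -0.22 and -0.04. Ndufc1, an accessory subunit of the membrane arm, had a change of -0.21 ± 0.11 at 1.0% and a slope of -0.27 ± 0.11 per percent, adjusted p = 0.517.

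Ndufa7, an accessory subunit, ran the other way at 1.0%. Its signals were 10.95, 10.98, 10.95 and 10.91 in the control samples, 11.004, 11.19 and 11.15 at 0.1%, 11.04 and 10.89 at 0.5% and 11.36 and 11.18 at 1.0%. Both 1.0% samples and all 0.1% samples exceeded every control sample, while the 0.5% samples overlapped them. The 1.0% change was 0.32 ± 0.10 with an adjusted p of 0.737, its other 4 probe sets gave -0.0035 to 0.16, and without scaling the sign turned to -0.12. Ndufs3, a core subunit of the matrix arm, was 0.16 higher at 1.0%, with both samples above the controls, but 0.044 without the RNA of 1.0% replicates 2, 3, 5 and 6 and -0.29 without scaling.

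At 0.1% the subunits with the lowest p in complex I were Ndufa12 and Ndufa2, both accessory subunits. Ndufa2 read 10.34, 10.49, 10.45 and 10.39 in the control samples, 10.52, 10.74 and 10.71 at 0.1%, 10.46 and 10.38 at 0.5% and 10.40 and 10.32 at 1.0%. Every 0.1% sample lay above every control sample, and the samples of the higher doses lay among the controls or below them. The change was 0.24 ± 0.09, adjusted p = 0.508. Ndufa12 was higher by 0.26 ± 0.09, adjusted p = 0.508, but the control and 0.1% samples overlapped. Its 3 bright probe sets gave 0.25 to 0.30, while a dim one at a mean of 3.54 gave -0.65. Ndufc2 and Ndufs7, named after their values were seen, were each 0.26 higher at 0.1%, and Ndufs1, the largest core subunit, stood at -0.23 with all 3 samples below the controls.

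Over all 33 tested members of complex I, the changes against control ran from -0.23 for Ndufs1 to 0.26 for Ndufs7 at 0.1%, from -0.39 for Ndufb1, a dim probe set, to 0.17 for Ndufa8 at 0.5%, and from -0.40 to 0.32 at 1.0%, with no member called. At 0.5% Ndufa3 stood at -0.20 ± 0.09 (adjusted p = 0.932), with both samples below the controls, and another bright probe set gave -0.33.

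Complex II, succinate dehydrogenase, links the tricarboxylic acid cycle to the chain. Its 4 subunits were all lower at 0.5%, 3 of them with no overlap with the controls, as were 8.69% of all genes, and their mean relative to control was -0.20 and -0.35 in the 0.5% samples. At 1.0% it was -0.03 and -0.05, within the control range of -0.06 to 0.08. No member was called.

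Sdhc, a membrane anchor, accounted for the largest value. It read 9.99, 9.97, 10.45 and 10.50 in the control samples, 10.43, 10.01 and 10.72 at 0.1%, 9.91 and 9.22 at 0.5% and 10.13 and 10.11 at 1.0%. The lower 0.5% sample, replicates 4 and 5, was below all others, but the higher one, at 9.91, lay just under the lowest controls. The change at 0.5% was -0.66 ± 0.22, adjusted p = 0.719, and it was -0.31 without replicates 4 and 5. A dimmer probe set of Sdhc gave -0.10. Sdhb, the iron-sulfur subunit, stood at -0.20 ± 0.11 at 0.5%, with both samples below the controls. Sdhd, the other anchor, differed from control by -0.06.

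Sdha, the flavoprotein subunit, had its lowest value at 0.1%. It read 11.36, 11.36, 11.07 and 11.09 in the control samples, 11.11, 11.11 and 10.24 at 0.1%, 11.02 and 11.09 at 0.5% and 11.07 and 11.28 at 1.0%. Replicate 5 at 0.1% stood far below every other sample. The change there was -0.40 ± 0.18, adjusted p = 0.570, and without replicate 5 it was -0.11. The gene's other kept probe set gave 0.03 at 0.1%.

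Complex III, the cytochrome bc1 complex, showed no p under 0.05 against control at any dose. Among its 8 subunits, 7 were lower at 0.5% with a median change of -0.07, and 4 of 8 were lower at 1.0%. Uqcr11, a small accessory subunit, stood at -0.23 ± 0.11 at 0.5%, adjusted p = 0.945, with both samples below the controls. Uqcrc1, a core protein, read 10.36, 10.43, 10.54 and 10.61 in the control samples, 10.41, 10.36 and 10.87 at 0.1%, 10.34 and 10.08 at 0.5% and 10.81 and 10.35 at 1.0%. Its 0.5% samples lay below the controls, while the 1.0% samples split, 1 above all controls and 1 below them. Uqcrc2, the other core protein, stood at -0.18 ± 0.12 at 1.0%, and Uqcrfs1, the Rieske iron-sulfur protein, at -0.13. Uqcr10 had the widest gap between probe sets of all members, 1.17 at 1.0%, from 0.85 to -0.32, both from probe sets far dimmer than the one used, which gave 0.17.

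Complex IV, cytochrome c oxidase, holds the tissue isoforms. The ubiquitous or liver-type subunits Cox4i1, Cox5a, Cox5b, Cox6a1, Cox6b1 and Cox7a2 were bright and differed from control by -0.13 to 0.17 at all 3 doses. Cox6b1 was 0.17 ± 0.08 higher at 0.1%, adjusted p = 0.582, and all 3 samples lay above the controls, at 12.67, 12.83 and 12.68 against 12.50 to 12.63. Its 0.5% samples, at 12.5009 and 12.37, lay below all controls, but the higher one was nearly equal to the lowest control, at 12.5011. Cox5b was lower in both 1.0% samples than in every control, with a change of -0.12. A second bright probe set gave -0.12 too, but 2 others, at mean log2 signals of 10.79 and 10.47, gave 0.19 and 0.15.

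Cox8a, the ubiquitous form of subunit VIII, was lower at 0.5% only among the 3 doses by sample overlap. It read 9.85, 9.80, 9.82 and 9.78 in the control samples, 9.77, 9.78 and 10.003 at 0.1%, 9.63 and 9.32 at 0.5% and 9.89 and 9.73 at 1.0%. Both 0.5% samples lay below all others. The change was -0.34 ± 0.12, adjusted p = 0.719, another bright probe set gave -0.30, and without replicates 4 and 5 the change was -0.18. The difference between 1.0% and 0.5%, 0.33 ± 0.13, had an adjusted p of 0.999.

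The isoforms known from muscle or testis were dim. Cox6a2, the heart and muscle form, ranged from 3.47 to 4.80 over the RNA samples, and Cox6b2, a testis form, from 3.00 to 4.08. Cox8b ranged from 3.00 to 4.03 and Cox4i2 from 3.00 to 3.97. Cox7a1, the heart and muscle form of subunit VIIa, read 4.12, 4.60, 3.93 and 4.68 in the control samples, 4.69, 4.98 and 5.44 at 0.1%, 4.22 and 4.15 at 0.5% and 4.44 and 4.47 at 1.0%. All 0.1% samples lay above the controls. The change at 0.1%, 0.71 ± 0.25, was the highest of any member there but came from a dim probe set and had an adjusted p of 0.504. Muscle markers summed to 103 to 107 in the 0.1% samples and 99.5 to 116 in the controls.

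Cox8c, a testis form of subunit VIII, was higher at every dose by sample overlap. It read 6.70, 6.61, 6.71 and 6.51 in the control samples, 6.74, 6.87 and 6.81 at 0.1%, 6.89 and 6.92 at 0.5% and 7.13 and 6.90 at 1.0%. None of the phloridzin samples overlapped the controls. The change at 1.0% was 0.38 ± 0.15, adjusted p = 0.756. Of 4 testis markers with a probe set, Prm1 was detected at 7.81 to 8.98, Tnp2 was at the floor in every sample and Prm2 and Tnp1 were near it. The 4 summed to a linear signal of 249 to 484 in the controls and 505 to 529 at 1.0%, and their part in the result was not tested. Cox7c, read here from a dim probe set at 3.00 to 5.07, was 1.12 ± 0.41 higher at 0.5% and 1.11 ± 0.41 at 1.0%, adjusted p = 0.773 and 0.744. Cox7b had no single-gene probe set here.

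Complex V, the ATP synthase, held Atp5d, whose slope p and F-test p were the lowest of the 76. The alpha, beta and gamma subunits differed little in the probe sets used. Atp5a1, the alpha subunit, differed by -0.07, -0.08 and -0.09 at the 3 doses. Atp5b, the beta subunit, differed by -0.05, -0.16 and -0.06, and Atp5c1, the gamma subunit, by -0.04, 0.02 and 0.10. A second bright probe set of Atp5a1 gave -0.15, -0.16 and -0.29, with both 1.0% samples below every control. At 0.5% 14 of 17 subunits were lower, against 49.1% of all genes, and 6 had no overlap with the controls, against 8.69%. At 1.0% 11 of 17 were lower, and at 0.1% 8 were higher and 9 lower.

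Atp5d, the delta subunit of the central stalk, read 11.88, 12.05, 12.01 and 12.22 in the control samples, 12.14, 12.27 and 12.17 at 0.1%, 11.80 and 11.61 at 0.5% and 11.60 and 11.55 at 1.0%. All samples of 0.5% and 1.0% lay below all controls, and the 0.1% samples lay within or above the control range. The change was -0.34 ± 0.10 at 0.5% and -0.47 ± 0.10 at 1.0%, signals 1.26 and 1.38 times lower than control, with limma adjusted p of 0.682 and 0.621. The slope was -0.57 ± 0.12 per percent of phloridzin, adjusted p = 0.412. Against 0.1%, the 1.0% change of -0.62 ± 0.11 had an adjusted p of 0.133, the lowest of any member in any of the comparisons. The gene's other probe set, at a mean of 9.76, gave -0.13 at 0.5% and 0.07 at 1.0%, so the direction at 1.0% differed between the 2 probe sets.

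Atp5h, a subunit of the peripheral stalk, read 12.18, 12.22, 12.23 and 12.23 in the control samples, 12.28, 12.44 and 12.39 at 0.1%, 12.08 and 12.17 at 0.5% and 11.80 and 12.14 at 1.0%. Both 0.5% and both 1.0% samples lay below the controls and all 0.1% samples lay above them. Its change at 1.0% was -0.25 ± 0.10, adjusted p = 0.756, and its other probe set gave -0.00027. Without the RNA of 1.0% replicates 2, 3, 5 and 6 the change was -0.07. Atp5g1, 1 of the 3 genes that encode the same mature ring subunit c, stood at -0.34 ± 0.12 at 0.5%, adjusted p = 0.731. That value rested on replicates 4 and 5, at 10.30 against 10.78 to 10.92 in the controls, and was -0.11 without them. The other 2 genes for subunit c, Atp5g2 and Atp5g3, differed by -0.15 and -0.02 at 0.5%. Atp5o, a stalk subunit, was 0.21 ± 0.10 higher at 1.0%, with both samples above the controls. That value was 0.068 without the RNA of 1.0% replicates 2, 3, 5 and 6, and -0.24 without scaling.

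**Figure D4:**
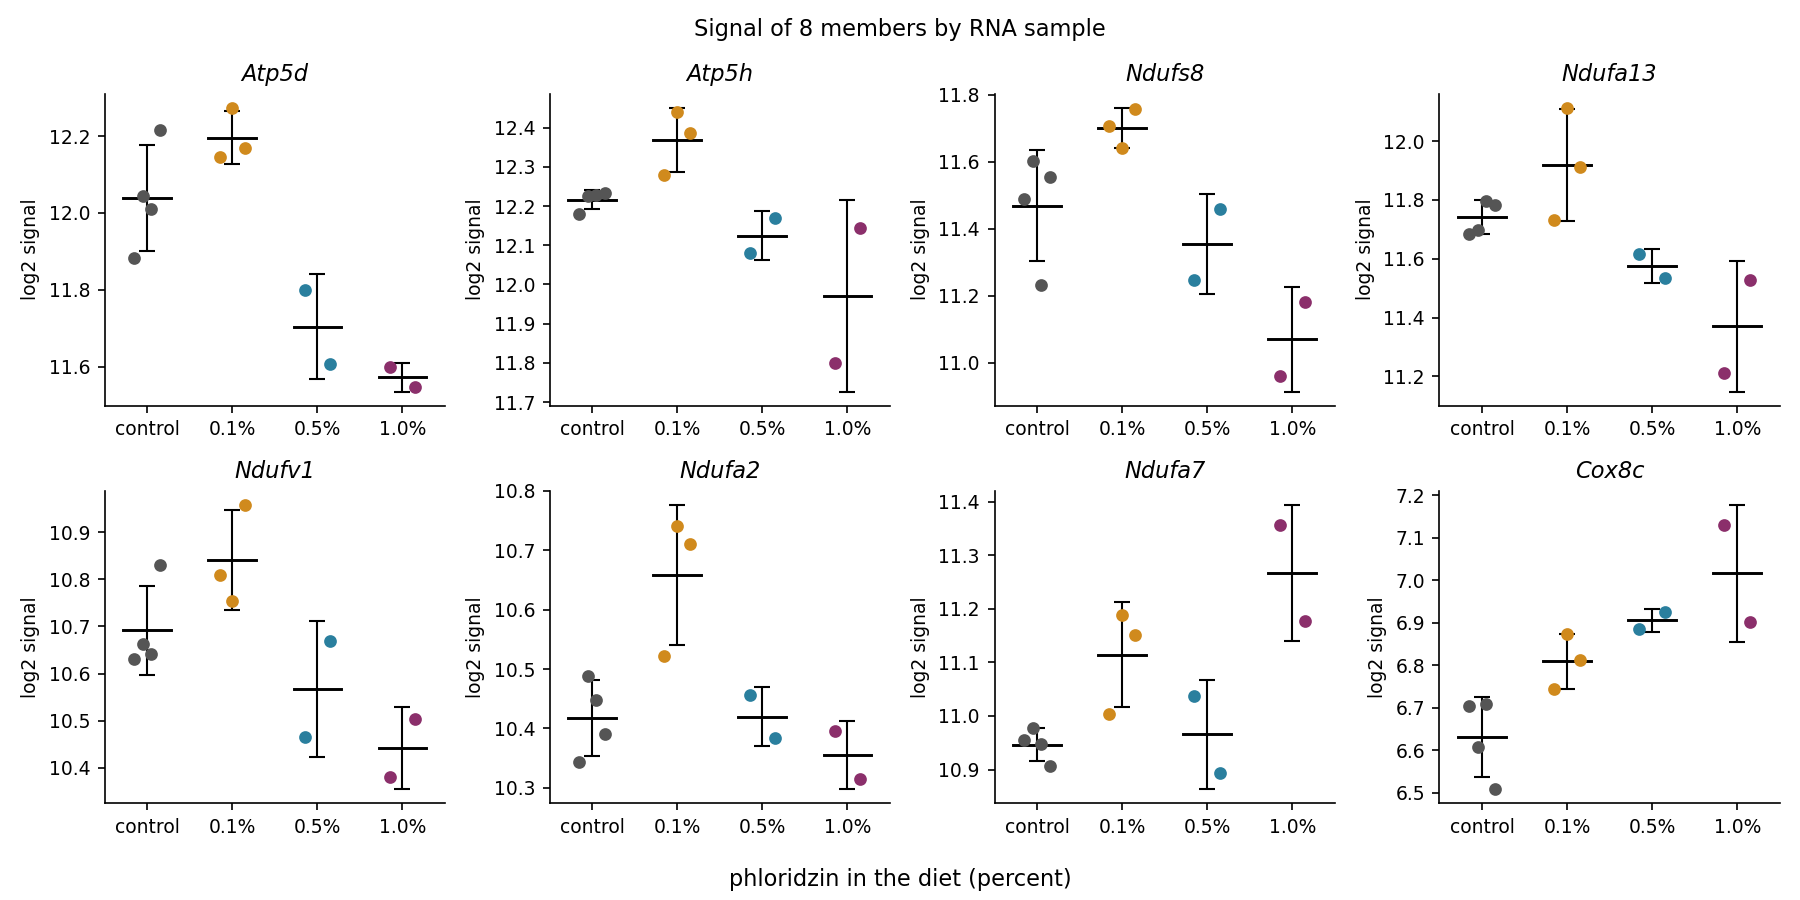
Log2 signal of 8 members in each RNA sample by percent of phloridzin in the diet, with group means as lines and SDs as bars (n = 4, 3, 2 and 2). Atp5d, Atp5h, Ndufs8, Ndufa13 and Ndufv1 lie below the control samples at 1.0%, Ndufa2 lies above them at 0.1% and Ndufa7 and Cox8c lie above them at 1.0%.

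The upstream sequences of the 4 bright members with the lowest slope p are shown because those genes, picked after their values were seen, were low together at 1.0%, and because the promoters of respiratory chain genes are known for a small set of motifs. They are the 250 bases before the RefSeq start in GRCm38.p6, 5' to 3' on the strand of the gene, in lower case with motif matches in capitals. For Atp5d 2 starts are listed and the window of the first is printed.
Atp5d, chr10:80142025-80142274, plus strand: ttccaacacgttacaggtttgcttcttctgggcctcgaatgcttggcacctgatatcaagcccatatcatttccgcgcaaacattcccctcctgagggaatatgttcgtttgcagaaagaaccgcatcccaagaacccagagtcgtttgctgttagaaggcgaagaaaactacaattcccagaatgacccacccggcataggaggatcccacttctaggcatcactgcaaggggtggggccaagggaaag
Ndufs8, chr19:3912775-3913024, minus strand: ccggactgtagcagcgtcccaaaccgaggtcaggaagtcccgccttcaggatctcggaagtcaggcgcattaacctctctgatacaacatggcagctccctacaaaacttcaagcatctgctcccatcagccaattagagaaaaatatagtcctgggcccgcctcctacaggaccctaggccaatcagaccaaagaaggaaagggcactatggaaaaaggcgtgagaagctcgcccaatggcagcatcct
Ndufa13, chr8:69902021-69902270, minus strand: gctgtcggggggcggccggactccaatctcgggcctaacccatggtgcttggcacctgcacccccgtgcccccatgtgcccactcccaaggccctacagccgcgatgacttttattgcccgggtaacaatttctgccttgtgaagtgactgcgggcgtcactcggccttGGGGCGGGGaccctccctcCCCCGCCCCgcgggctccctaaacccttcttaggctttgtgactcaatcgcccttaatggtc
Atp5h, chr11:115419920-115420169, minus strand: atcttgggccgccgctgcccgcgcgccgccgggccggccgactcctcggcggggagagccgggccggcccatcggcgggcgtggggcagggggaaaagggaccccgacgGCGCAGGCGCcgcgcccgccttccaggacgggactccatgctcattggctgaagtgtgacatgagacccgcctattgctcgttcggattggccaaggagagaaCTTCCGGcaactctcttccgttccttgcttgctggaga
The Ndufa13 window holds 2 SP1 matches, 1 on each strand, starting at -81 and -62 from the start, and the Atp5h window holds an NRF1 match at -141 and an ETS match at -38. In the printed Atp5d and Ndufs8 stretches none of the 6 motifs searched matched, and an ETS match of Ndufs8 lies outside the stretch, after the start.

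Over the full windows of 300 bases, which add 50 after the start, 66 of the 81 members had an entry in RefSeq's table. Both strands were searched, and overlapping matches of different motifs were allowed. The NRF1 motif, GCGC, any 2 bases, then GCGC, was present in 24.2% of the members, 13.8% of the tested genes with a window and 7.0% of all genes with one. For the ETS motif CCGGAAG, which GABPA binds, the shares were 25.8%, 18.2% and 9.93%. The YY1 motif AAGATGGCG gave 9.09%, 3.24% and 1.64%, and the ESRRA motif TCAAGGTCA gave 3.03%, or 2 members, against 0.352% and 0.466%. The SP1 motif GGGGCGGGG was found in 16.7% of members, 23.4% of tested genes and 12.9% of all genes, and TATAAA in 12.1%, 9.84% and 15.7%. For both, the members lay between the other shares. A match is a description of letters, not a binding site.

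In the other mitochondrial gene lists no gene was called either, at an adjusted p under 0.05. Of 39 tested assembly factors for the complexes, 30 were lower at 0.5% and 31 at 1.0%, with median changes of -0.13 and -0.12. The lowest p there was that of Oxa1l, which inserts proteins into the inner membrane, at -0.75 ± 0.19 at 1.0%, adjusted p = 0.626. Of 76 mitochondrial ribosomal protein genes, 53 were lower at 0.5% and 48 at 1.0%, with medians of -0.08 at both. Mrpl40, of the large subunit, was at -0.47 ± 0.15 at 1.0%, adjusted p = 0.744. Mrpl44, named after its values were seen, had the lowest p of that list and went the other way, at 0.62 ± 0.16 at 0.5% (adjusted p = 0.574) and 0.34 ± 0.16 at 1.0%. Genes of protein import were lower in 17 of 21 cases at 1.0% and tricarboxylic acid cycle genes in 13 of 17, with Pcx, pyruvate carboxylase, at -0.29 ± 0.13. Regulators of these genes were split, 7 of 14 on each side at 1.0%: Tfam, a factor for mitochondrial DNA, was at -0.28 ± 0.14 and Ppargc1a, a coactivator of respiratory genes, at 0.45 ± 0.26. Among 10 carriers and oxidant defence genes 4 were lower at 1.0%, and Sod2, the mitochondrial superoxide dismutase, was at -0.24 ± 0.10. Of 5 chain genes outside the symbol rule, 4 were lower at 1.0%, among them Ndufab1 at -0.18, and cytochrome c (Cycs) was at 0.10.

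Between doses, 18 members were lower at 1.0% than at 0.1% at an unadjusted p under 0.05 and 1 was higher, against 7.38% and 4.85% of all genes. At 0.5% against 0.1%, 19 were lower and 1 was higher, against 5.46% and 5.2% of all genes. In the limma fit 0 of 76 members were called in either comparison at an adjusted p under 0.05, where 0.0153% and 0% of all genes were. The lowest adjusted p were 0.133 and 0.227. Both comparisons use the same 0.1% samples. With the RNA of 2 diet labels kept under each label, and so on both sides, the 18 became 4. In either direction that was 5.26% of the members, against 3.36% of all genes. In that setting the 19 became 15. With eBayes without a trend the 18 and the 19 each became 9. In either direction these were 13.2% of the members, against 11.2% and 9.66% of all genes. Without the RNA of 0.5% replicates 4 and 5, the 19 became 4, and without 0.1% replicate 5 they became 13. Without 1.0% replicates 2, 3, 5 and 6, or without 1.0% replicate 4, the 18 became 10 and 11. Between 1.0% and 0.5%, 4 were higher and 1 was lower at that level, where 1.6% and 2.59% of all genes were, 4.19% in all. The slope on dose gave 3 higher and 7 lower, against 3.34% and 5.48% of all genes and 8.82% in all, and the F-test over the 4 diets gave 18 of 76, or 23.7%, against 9.12%. With the RNA of 2 diet labels kept under each label, the slope gave 2 higher and 0 lower. The F-test then gave 5, or 6.58% against 6.35% of all genes. Without the RNA of 0.5% replicates 4 and 5 the 18 became 9, or 11.8% against 7.56% of all genes, and with eBayes without a trend they became 5, or 6.58% against 8.2%. None was called on the slope or in the F-test, where 0% and 0.0153% of all genes were. The lowest adjusted p were 0.412 on the slope and 0.271 in the F-test.

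Different probe sets of 1 gene set a limit on single members. Of 43 members with more than 1 probe set kept, 36 had probe sets with opposite signs at some dose. The widest gaps after Uqcr10 were those of Ndufa12 (0.95 at 0.1%), Atp5a1 (0.91 at 1.0%), Ndufb2 (0.76 at 0.1%) and Cox5b (0.75 at 1.0%), each of which includes a dim probe set. For 18 of the 76 tested members the probe set used has an ID ending in _x_at or _s_at, the array maker's mark for probes that may match other transcripts. A further 9 probe sets list a member together with other genes, such as Ndufb4 with Ndufb4b and Ndufb4c, and were not used.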

How the data were processed

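Liver RNA of 24 mice by the labels was hybridised to one-colour Affymetrix arrays. The deposited table gives 1 linear intensity per probe set and array (45101 probe sets), made by the authors, whose way of summarising and scaling is not given in the sources used here. All 64 control probe sets were set aside, the intensity values were quantile normalised with limma 3.58.1 in R 4.3.3, the lowest 40% of probe sets by mean log2 were left out, values under 8 were raised to 8 and log2 was taken. Each gene kept its probe set with the highest mean over 24 arrays, by the platform annotation's single-gene assignments. Near-identical arrays were averaged. Groups were compared with limma's lmFit and eBayes (trend) in 1 fit of the 4 diets, which left 7 residual degrees of freedom, two-sided, with Benjamini-Hochberg adjustment over all genes. The script was tested on simulated data. 5.16% of tested values were at the floor, and the number of RNA samples limits the precision.

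The members, lists and motifs were chosen with earlier results of these data known, so no pattern already known from them counts as independent support. Named members were core subunits, tissue isoforms, those with the lowest p per complex and comparison, those with the widest gaps between probe sets and those without a test. Alternatives changed the scaling, floor, filter, probe set choice, handling of near-identical arrays, fit and replicate block, and left out each RNA sample in turn. RefSeq promoter windows (GRCm38.p6) were matched by the Entrez gene ID that the annotation gives for each symbol. Python 3.11.15, pandas and matplotlib were used for the lists, motifs and plots. No protein sequence was used.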

Additional observations from a re-analysis of the deposited data

Results flagged for a closer look

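The RNA that carries labels of 2 diets, left out of every comparison, held the highest subunit signals of the series by several of the means over complexes. Relative to the control mean it stood at 0.18 for complex I, above the control samples at -0.03 to 0.03 and above the 0.1% samples at 0.02 to 0.15. For complexes III, IV and V it stood at 0.11, 0.24 and 0.14, each above all control samples, and over all 76 members at 0.16, against a control range of -0.02 to 0.04. For complex II it was -0.05, inside the control range. The cause was not tested.

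Among the 4 control samples, 3 members had 1 sample far from the others. In Ndufa4 the sample of replicates 2 and 4 was highest, at 10.74 against 10.62 to 10.64, with a gap of 0.838 of the range. In Ndufs1 replicate 5 was lowest, at 9.43 against 9.49 to 9.50, a gap of 0.835 of the range. In Ndufv1 replicate 6 was highest, at 10.83 against 10.63 to 10.66, again a gap of 0.838 of the range. Chance alone sets apart about 1 in 20 groups by this measure, and 82 were examined.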

How the results depend on the processing

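At 0.1%, the median log2 change of the members, 0.06, was -0.014 after centring each array on its median, -0.10 without scaling and 0.11 with the RNA of 2 diet labels kept under each label. With the 24 arrays as separate samples it was 0.15, with or without the replicate number as a block. Leaving out each RNA sample in turn gave 0.038 to 0.12 at 0.1%, -0.09 to -0.06 at 0.5% and -0.09 to -0.06 at 1.0%. At 0.5%, the median of -0.07 became -0.24 with median centring, -0.14 with scaling to the 75th percentile and -0.34 without scaling. At 1.0%, the median of -0.07 became -0.34, -0.19 and -0.50 under those scalings in turn, 0.024 with the RNA of 2 diet labels kept, and -0.0068 with 24 arrays, blocked or not.

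No member was called in any comparison as reported. Treating the 24 arrays as separate samples, which counts near-identical arrays more than once, called 27 members at 0.1%, 2 at 0.5% and 5 at 1.0%. It called 55 between doses, 55 over the 4 diets and 1 on the slope. Of all 13068 genes, the same setting called 2605, 444 and 396 at those doses, 4663 over the 4 diets and 110 on the slope. Between doses it called 3966 genes at 0.5% against 0.1%, 2115 at 1.0% against 0.1% and 966 at 1.0% against 0.5%. With the replicate block the members' counts were 27, 2, 4, 56, 49 and 0. Of all genes, 2705, 411 and 378 were then called at the doses, 4672 over the 4 diets and 18 on the slope. Between doses 3983, 2182 and 936 genes were called, in the order of comparisons given above. Same-numbered arrays' deviations from their diet means correlated at -0.43 to 0.76. The highest value was for replicate 1, where the 0.1% and 1.0% arrays were near-identical. Differently numbered arrays were not set beside them, so whether replicate numbers pair the samples was not tested. With arrays joined by near-identity only, 5 members were called between doses, all lower at 1.0% than at 0.1% (Atp5d, Atp5h, Ndufa13, Ndufs8 and Ndufv1). Over the 4 diets 1 was called, Atp5d. Of all 13068 genes, that joining called 143 at 1.0% against 0.1% and 30 over the 4 diets. The other alternatives, namely floor, filter, probe set choice, eBayes without trend, fits of 2 diets and members over log2 9 only, the last added after seeing the data, called 0. Of 59 changes of single members examined, 25 changed sign under at least 1 alternative, none of them called as reported. Atp5o at 1.0% went to -0.24, Ndufs3 to -0.29 and Uqcr10 to -0.28 without scaling, and Cox5b at 1.0% went to 0.15 without probe sets ending in _x_at or _s_at. Of those with an unadjusted p under 0.05, Ndufa12 at 0.1% turned to -0.65 without probe sets ending in _x_at or _s_at, and Ndufa7 at 1.0% turned to -0.12 without scaling. Leaving out 1 RNA sample brought Ndufa3 at 0.5% to -0.11 and Uqcr11 at 0.5% to -0.13 (0.5% replicates 4 and 5), and Ndufs1 at 0.1% to -0.12 (0.1% replicate 5). The RNA quality values have no alternative. Dim probe sets near the floor limit Cox7c, Cox7a1, Cox6a2 and Cox6b2.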
